A study of Mus musculus with 17 samples.

Results

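In all, 10 germline and placental genes were chosen by name, and 9 of them had a row among the 24015 genes counted in each library. Tex19.1, Trap1a, Xlr3a, Xlr5a and Xlr5b were picked because of how their levels varied over these samples, so their values are given here as a description, with no test. Dazl, Ddx4, Mael and Sycp3 were not picked for their values and were tested like any other gene. The last of the 10, Rhox5, is not analysed here.

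Many germ cell genes have CpG-rich promoters that are methylated and silent in somatic cells of the embryo. A Polycomb complex that holds MAX, MGA, E2F6, L3MBTL2 and PCGF6 is known to keep such genes off in embryonic stem cells. Extraembryonic tissues carry less DNA methylation than the embryo proper, and several germline genes, Tex19.1, Trap1a and Rhox5 among them, are known to be active in placenta or yolk sac.

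RNA of CD-1 mouse cells was sequenced in 17 mRNA libraries. MEF, the control, are mouse embryonic fibroblasts kept for 3 passages in MEF medium (3 libraries). XEN cells are stem cell lines of extraembryonic endoderm, the layer that lines the yolk sac, and iXEN cells are induced lines of the same kind that arise in reprogramming with the factors OSKM. Both were kept for 10 passages in ESC medium, which is made for embryonic stem cells, and then for 5 more passages in either ESC medium (3 XEN and 4 iXEN libraries) or XEN medium (3 XEN and 4 iXEN libraries). No group carries an allele named in the labels. Cell type, medium and passage number all differ between MEF and the other groups and cannot be told apart there. Levels are given as CPM, the counts of a gene scaled to the library's total and not to gene length, so they are compared between libraries and not between genes. In bulk RNA, fewer cells of a type and less RNA per cell cannot be told apart.

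Each library held between 20071567 and 45914262 counts in genes, where 3 counts correspond to 0.0589 to 0.138 CPM. The 8 fixed XEN markers, among them Gata4, Gata6 and Sox17, summed to 781 to 985 CPM in MEF and to 2710 to 32100 CPM in the 14 XEN and iXEN libraries. The lowest of these were XEN number 7 in ESC medium (2710 CPM) and in XEN medium (4560 CPM). The 9 fibroblast markers summed to 36400 to 51200 CPM in MEF. They reached 7620 CPM in XEN number 1 in ESC medium, 2130 and 958 CPM in iXEN numbers 2 and 9 in XEN medium and 336 CPM in XEN number 2 in ESC medium, against at most 22.6 CPM in the other 10. Of the 8 trophoblast markers, Tpbpa and Prl3b1 had 0 counts in all 14 and the sum was at most 6.77 CPM. The 8 germ cell markers summed to at most 11 CPM, in iXEN number 1 in XEN medium. For the 7 Sertoli cell markers the sum was at most 19.8 CPM, next to 17.7 to 18.8 CPM in MEF.

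Sex-linked RNA was alike across media for some of the library numbers in the labels and not for others. The Y-linked gene Eif2s3y was present in both media in XEN number 2 (34.4 CPM in ESC and 61.5 CPM in XEN medium), iXEN number 1 (40.6 and 115 CPM) and iXEN number 2 (130 and 30.9 CPM). It stood at 0 CPM in iXEN number 9 in ESC medium and at 30 CPM in the library with that number in XEN medium. Xist, the RNA that coats an inactive X chromosome, was at 2240 and 0.463 CPM in the same pair. In iXEN number 6, Eif2s3y was at 31.5 CPM in ESC medium and at 0.0301 CPM in XEN medium. XEN number 1 had 39.2 CPM of the Y-linked Ddx3y in ESC medium and 0.0245 CPM in XEN medium, while its Eif2s3y level was 65.8 and 15.5 CPM. XEN number 7 had no Eif2s3y counts and high Xist in both media (716 and 1090 CPM). Whether same-numbered libraries come from 1 line was not tested further, and each library is described by its own value below.

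**Figure D1:**
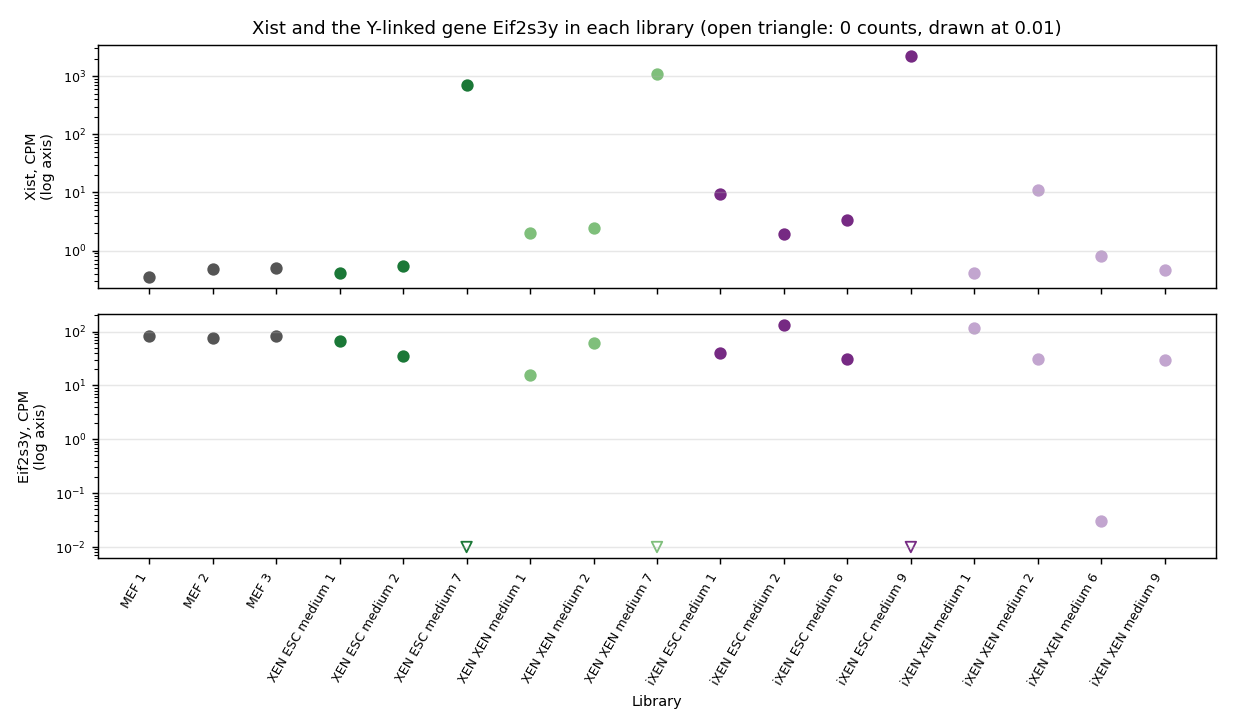
Level of Xist (upper panel) and of the Y-linked gene Eif2s3y (lower panel) in each of the 17 libraries, in CPM on log axes, coloured by group, with open triangles for 0 counts. Xist is high in XEN number 7 in both media and in iXEN number 9 in ESC medium, where Eif2s3y is at 0 counts, and iXEN number 9 in XEN medium has the reverse.

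Promoters of 6 genes are shown first, as a description made with their levels known. The 6 are the promoters of Tex19.1 and Trap1a, the near-identical pair Xlr5a and Xlr5b, and the germ cell genes Ddx4 and Mael. Each is the 250 bases before the RefSeq start on build GRCm38.p6, written 5′ to 3′ on the gene's own strand, with CpG dinucleotides in capitals. Tex19.1 lies at chr11:121145893-121146142, plus strand, and Trap1a at chrX:139333433-139333682, plus strand. Xlr5a lies at chrX:73117703-73117952, minus strand, and Xlr5b at chrX:73148591-73148840, plus strand. Ddx4 lies at chr13:112652311-112652560, minus strand, and Mael at chr1:166238745-166238994, minus strand.
Tex19.1: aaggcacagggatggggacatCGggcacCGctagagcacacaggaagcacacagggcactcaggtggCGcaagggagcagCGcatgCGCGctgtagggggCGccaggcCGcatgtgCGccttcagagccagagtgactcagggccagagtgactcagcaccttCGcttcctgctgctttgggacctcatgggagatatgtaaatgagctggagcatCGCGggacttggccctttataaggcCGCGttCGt
Trap1a: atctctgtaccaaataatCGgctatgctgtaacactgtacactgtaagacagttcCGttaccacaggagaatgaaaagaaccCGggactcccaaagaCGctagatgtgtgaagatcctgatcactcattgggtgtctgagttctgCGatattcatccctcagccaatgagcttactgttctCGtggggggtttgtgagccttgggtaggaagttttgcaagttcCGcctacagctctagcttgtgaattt
Xlr5a: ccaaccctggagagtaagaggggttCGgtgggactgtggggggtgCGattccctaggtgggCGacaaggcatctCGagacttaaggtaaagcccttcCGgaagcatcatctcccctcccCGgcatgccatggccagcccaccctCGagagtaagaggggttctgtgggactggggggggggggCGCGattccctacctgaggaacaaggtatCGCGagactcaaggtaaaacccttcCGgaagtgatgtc
Xlr5b: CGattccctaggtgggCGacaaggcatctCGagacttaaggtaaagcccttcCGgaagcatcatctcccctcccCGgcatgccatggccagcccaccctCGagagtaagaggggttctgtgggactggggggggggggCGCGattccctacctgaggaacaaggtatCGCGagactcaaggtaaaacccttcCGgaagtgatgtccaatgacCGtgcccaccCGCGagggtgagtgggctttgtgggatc
Ddx4: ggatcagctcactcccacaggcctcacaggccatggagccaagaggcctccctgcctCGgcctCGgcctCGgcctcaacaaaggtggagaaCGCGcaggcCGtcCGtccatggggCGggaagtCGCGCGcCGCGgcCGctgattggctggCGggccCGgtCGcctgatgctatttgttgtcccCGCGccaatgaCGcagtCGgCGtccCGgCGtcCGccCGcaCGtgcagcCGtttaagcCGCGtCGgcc
Mael: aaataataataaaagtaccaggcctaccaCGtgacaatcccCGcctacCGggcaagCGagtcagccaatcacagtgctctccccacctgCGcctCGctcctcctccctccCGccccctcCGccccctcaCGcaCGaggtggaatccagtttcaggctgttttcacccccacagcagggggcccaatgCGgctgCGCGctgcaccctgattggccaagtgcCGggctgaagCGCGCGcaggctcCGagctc

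Over the whole window from 250 bases before to 50 bases after the start, Ddx4 held 38 CpG, Dazl 28 and Mael 24. The median of 32851 RefSeq promoters was 7 and their upper quartile 20, so these 3 germ cell genes had CpG-rich promoters. Tex19.1, Xlr5a and Xlr5b held 16 each and Sycp3 15, between the median and the upper quartile. Trap1a had 8 and Xlr3a 5, close to the median. Of the 30-base windows of the Xlr5b promoter, 226 of 271 (83.4%) also occurred in that of Xlr5a, while the Xlr3a and Xlr5a promoters shared 0. The letters CACGTG, an E-box that MAX dimers can bind, were searched on both strands and occurred once in the Ddx4 and Mael windows and at 2 places in Sycp3, and in none of the other 6 genes. They occurred in 7.15% of all promoters of that length. TCCCGC, the core of the E2F6 motif, was searched on both strands too and occurred once in Tex19.1, Ddx4 and Sycp3 and at 2 places in Mael. It was in 20% of all promoters, and in these genes its matches did not overlap those of CACGTG.

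**Figure D2:**
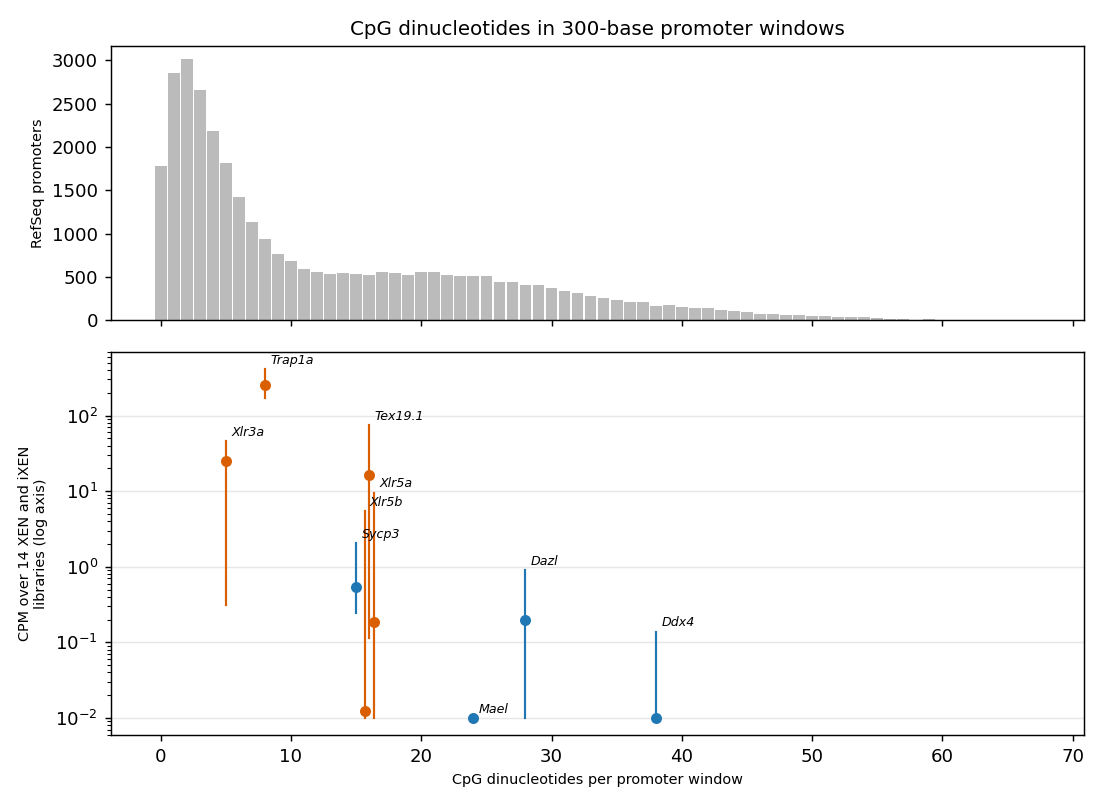
Upper panel: number of RefSeq promoters (300-base windows) by their number of CpG dinucleotides. Lower panel: the median (point) and range (line) of each gene's CPM over the 14 XEN and iXEN libraries, on a log axis with 0 drawn at 0.01, against its own CpG count, in orange for the 5 genes picked for their values and in blue for the other 4. Ddx4 and Mael, with 38 and 24 CpG, have a median of 0 CPM, Dazl with 28 stays under 1 CPM, and Xlr5a and Xlr5b, drawn side by side, have the same count of 16. MEF, where Ddx4 is at 7.19 to 16.7 CPM, is not drawn.

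Tex19.1 encodes a mammal-specific protein that restrains retrotransposons in germ cells and placenta. It was all but absent from MEF, with 1 count over the 3 libraries (0, 0.0376 and 0 CPM). In ESC medium it stood at 7.57, 1.61 and 39.3 CPM in XEN numbers 1, 2 and 7, and at 13.4, 22, 38.3 and 19 CPM in iXEN numbers 1, 2, 6 and 9. In XEN medium it stood at 3.55, 30.9 and 50.8 CPM in the XEN libraries and at 74.9, 7.31, 5.5 and 0.116 CPM in the iXEN libraries. All 14 values lay above MEF, but the lowest, iXEN number 9 in XEN medium, rested on 4 counts. Pooled counts per group were 1940 times those of MEF in iXEN and 1790 times in XEN cells in ESC medium. The counting intervals of these ratios are wide, 348 to 76700 and 321 to 70700 (95%), because MEF gave 1 count. In XEN medium the ratios were 1570 (282 to 62200) in iXEN and 2600 (466 to 103000) in XEN cells.

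Among the XEN and iXEN libraries Tex19.1 spanned 647-fold from lowest to highest, against 147-fold for Xlr3a, 8.33-fold for Sycp3 and 2.44-fold for Trap1a, the other genes with counts in all 14. The 4 iXEN libraries in ESC medium were the closest to each other, at 23.2 ± 10.7 CPM (SD, n = 4). iXEN cells in XEN medium averaged 22 ± 35.4 CPM (n = 4), where number 1 alone held most of the sum. XEN cells averaged 16.2 ± 20.3 CPM in ESC medium and 28.4 ± 23.7 CPM in XEN medium (n = 3 each). The groups overlapped in each of the 4 comparisons among XEN and iXEN cells, and leaving out 1 library moved the log2 difference between iXEN and XEN cells in XEN medium from -0.41 to between -2.71 and 0.34. Its copy Tex19.2, which shares 2.67% of the 50-base windows of Tex19.1 transcripts, reached at most 0.648 CPM. The library with the highest Tex19.1 level also had the highest germ cell marker sum (11 CPM, against 2.23 to 3.76 CPM in the other 3 of its group), and the part of those markers in the Tex19.1 level was not tested.

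Trap1a encodes the tumour antigen P1A, an X-linked gene known to be silent in most adult tissues and active in testis and placenta. It was high and even in XEN and iXEN cells, at 169 to 413 CPM in the 14 libraries, and near the limit of detection in MEF, at 0.232, 0.339 and 0.265 CPM. In ESC medium it stood at 322, 345 and 393 CPM in XEN cells and at 203, 215, 212 and 253 CPM in iXEN numbers 1, 2, 6 and 9, so that each XEN library lay above each iXEN library. The XEN medium values were 353, 211 and 232 CPM in XEN cells and 169, 253, 413 and 251 CPM in iXEN cells, and the groups overlapped. Its highest library was 2.44 times its lowest. The log2 difference from MEF in ESC medium was 9.64 in iXEN cells and 10.35 in XEN cells. The same differences for XEN medium were 9.99 and 9.92. None of its 50-base transcript windows occurred in another gene. The span of Trap1a does overlap that of Platr21 on the other strand, but 0 of 1129 Trap1a windows occurred in Platr21 transcripts. The same search did find windows of Sycp3 in Chpt1, which overlaps Sycp3 on the other strand. Overlap of Trap1a and Platr21 in the authors' own annotation was not checked.

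The Xlr genes are named for X-linked, lymphocyte-regulated, and their products are related to the meiotic protein SYCP3. Xlr3, Xlr4 and Xlr5 copies lie side by side on the X chromosome, where 9 promoters fall between Xlr4a and Xlr5c. Xlr3a was at 0.271, 0.376 and 0.206 CPM in MEF. In iXEN cells it was high in ESC medium, at 39.5, 37.7, 36.2 and 26.4 CPM, and low in XEN medium, at 2.85, 4.26, 5.66 and 1.8 CPM. XEN cells showed the opposite order, with 6.65, 0.313 and 22.9 CPM in ESC medium and 38.5, 46 and 41.8 CPM in XEN medium. In neither cell type did the 2 media overlap. The log2 difference of XEN from ESC medium was 2.03 in XEN cells and -3.25 in iXEN cells. XEN number 2 in ESC medium, at 0.313 CPM, lay within the MEF range, so Xlr3a was above MEF without overlap in 3 of the 4 groups.

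Xlr5a and Xlr5b were on in some libraries and at or near 0 counts in the others. Xlr5a stood at 8.15, 6.69, 8.49 and 3.17 CPM in iXEN cells in ESC medium and at 7.15 and 9.49 CPM in XEN numbers 1 and 2 in XEN medium. It had 0 counts in the 3 XEN libraries in ESC medium and in XEN number 7 in XEN medium. In iXEN cells in XEN medium it was at 0.342, 0, 0.0301 and 0 CPM, and in MEF at 0, 0.0753 and 0 CPM. Xlr5b followed the same libraries, at 2.56, 2.35, 5.4 and 0.457 CPM in iXEN cells in ESC medium and at 2.35, 2.2 and 0 CPM in XEN cells in XEN medium. It had 0 counts in XEN cells in ESC medium and 1 count in all over iXEN cells in XEN medium. With the XEN group set to a floor of 3 counts, iXEN cells in ESC medium were at least 176-fold higher than XEN cells for Xlr5a and at least 67.6-fold higher for Xlr5b. Within iXEN cells, pooled counts of Xlr5b were 331 times higher in ESC than in XEN medium (counting interval 59 to 13100, with 1 count in XEN medium).

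The separate Xlr values are uncertain, because the copies share sequence. In GENCODE M21 transcripts, 84.2% of the 50-base windows of Xlr5a, 90.7% of those of Xlr5b and 44.8% of those of Xlr3a also occur in other genes, mostly other Xlr genes. Reads without a unique position, which the counter left out, made up 13.65% to 24.57% of each library. iXEN libraries had 14.5% to 16.19% with ESC medium. With XEN medium, iXEN numbers 1, 2, 6 and 9 had 24.57%, 23.15%, 21.42% and 16.28%. XEN numbers 1, 2 and 7 had 20.4%, 21.88% and 15.63% with ESC medium, then 13.65%, 18.08% and 17.75% with XEN medium. The share was thus mostly higher where Xlr levels were low, but not in MEF (14.73% to 15.94%) or that iXEN number 9. Its part in the Xlr differences was not tested. The 9 Xlr3, Xlr4 and Xlr5 genes had a summed level of 57.9 to 80.7 CPM in iXEN cells kept in ESC medium, close to the 65.8 to 79.2 CPM of XEN cells in XEN medium. The sum was 3.1 to 25.5 CPM in iXEN cells in XEN medium, 8.3, 0.358 and 57.8 CPM in XEN cells in ESC medium and 0.442 to 0.64 CPM in MEF. The copies did not move as 1 block. Xlr4a was at 8.19 and 11.5 CPM in XEN number 7 in either medium and at 8.72 and 7.66 CPM in iXEN numbers 9 and 6 in ESC medium, against at most 0.911 CPM in the other 10, whereas Xlr5a was at 0 in both libraries of XEN number 7. Xlr4b reached 15.3 CPM in iXEN number 6 in XEN medium, where Xlr5a had 1 count.

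**Figure D3:**
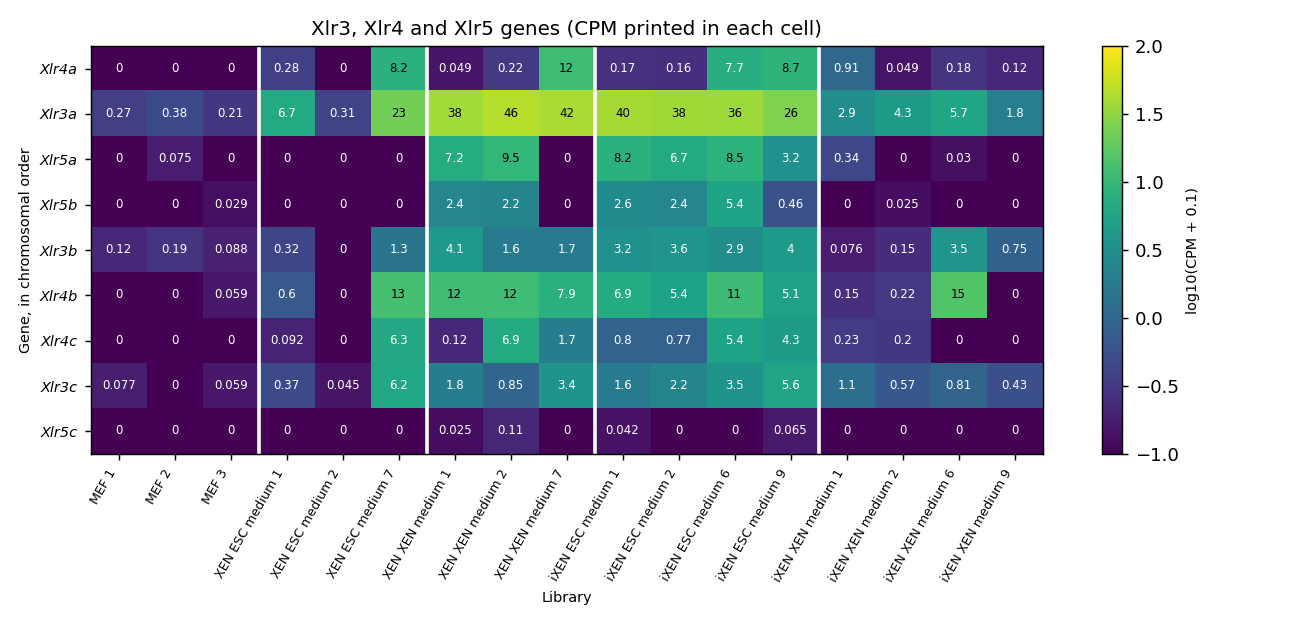
CPM of the 9 Xlr3, Xlr4 and Xlr5 genes (rows, in order along the X chromosome) in the 17 libraries (columns, groups split by white lines), printed in each cell and coloured by log10(CPM + 0.1). Xlr3a is above 26 CPM in all iXEN libraries in ESC medium and all XEN libraries in XEN medium, and Xlr5a and Xlr5b are at 0 in both libraries of XEN number 7.

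Ddx4, the VASA helicase of germ granules, was higher in MEF than in XEN and iXEN cells. MEF held 15.9, 16.7 and 7.19 CPM (1099 counts), and the 14 XEN and iXEN libraries together 13 counts. Its level was 0.138, 0 and 0.0261 CPM in XEN cells and 0.126, 0.0232, 0 and 0 CPM in iXEN cells in ESC medium. In XEN medium it was 0.049, 0 and 0 CPM in XEN cells and 0, 0.0738, 0 and 0 CPM in iXEN cells. Every MEF library lay above every other library. Ddx4 passed the count filter only through MEF, where it is high, so a tested Ddx4 had to differ and the p-values add little to the counts. It fell by 8.39 ± 0.83 (SE, log2) in iXEN cells in ESC medium with an edgeR adjusted p of 8.85e-05, where 25.9% of all genes were called lower. It fell by 7.84 ± 1.04 in XEN cells in ESC medium (edgeR adjusted p = 0.00693), where leaving out MEF number 1 gave an adjusted p of 0.0516. Its log2 difference from MEF in XEN medium was -8.97 ± 1.15 in iXEN cells (edgeR adjusted p = 0.0028) and -9.38 ± 1.05 in XEN cells (edgeR adjusted p = 0.00143). With replicate numbers as a block, the iXEN difference in XEN medium was -8.66 with an adjusted p of 0.166. With only 2 to 4 counts per XEN or iXEN group, the sizes of these log2 differences depend on the prior count. Pooled counts in XEN medium were 572 times higher in MEF than in iXEN cells (counting interval 195 to 2780) and 815 times higher than in XEN cells (225 to 6740). XEN number 1 in ESC medium and iXEN number 2 in XEN medium, which carried fibroblast markers, had 3 Ddx4 counts each, as did iXEN number 1 in ESC medium, which did not. Without the 3 libraries highest in those markers the adjusted p was 0.0069 in XEN cells in ESC medium and 0.000978 in iXEN cells in XEN medium.

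Dazl encodes an RNA-binding protein that germ cells need for their development, and it stayed under 1 CPM in all 17 libraries. MEF held 0.155, 0.0376 and 0.0295 CPM. In ESC medium the level was 0.229, 0.448 and 0.313 CPM in XEN cells and 0.462, 0.906, 0.0461 and 0.751 CPM in iXEN numbers 1, 2, 6 and 9. In XEN medium it was 0.171, 0.0825 and 0.589 CPM in XEN cells and 0.114, 0.0246, 0.0902 and 0 CPM in iXEN cells. iXEN cells in ESC medium were called higher than MEF, by 2.92 ± 0.96 (SE, log2; edgeR adjusted p = 0.0353), although number 6 with 1 count lay within the MEF range. Of all genes in that comparison, 20.8% were called higher. That call was lost without MEF number 2 (adjusted p = 0.123) or MEF number 3 (adjusted p = 0.133), in 1 fit of all 17 libraries (0.0585) and with replicate numbers as a block (0.0556). In the other 3 comparisons with MEF, Dazl had too few counts to be tested. Here it passed the filter only through iXEN libraries with 11, 39 and 23 counts, so the call depends on the group where it is high.

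Mael, which acts in the piRNA pathway that silences transposons in the germline, had 0 counts in all 14 XEN and iXEN libraries and 3 counts in MEF. At these depths 0 counts allow up to 0.138 CPM in the shallowest library. Sycp3, the SYCP3 protein gene of the axis of meiotic chromosomes, was low in all groups. It stood at 0.736, 0.64 and 0.942 CPM in MEF, at 1.79, 0.313 and 2.06 CPM in XEN and 0.504, 0.581, 0.969 and 0.359 CPM in iXEN cells in ESC medium. The values in XEN medium were 0.318, 0.248 and 0.471 CPM in XEN cells and 0.494, 0.713, 1.29 and 1.82 CPM in iXEN cells. It was called in none of the comparisons. The 3 XEN libraries in XEN medium lay below all MEF libraries, with a log2 difference of -1.1 ± 0.42 (SE; edgeR adjusted p = 0.0731), and below all iXEN libraries in that medium, where iXEN was higher by 1.65 ± 0.7 (edgeR adjusted p = 0.985). Without XEN number 7 the difference from MEF was -1.39 (adjusted p = 0.0346). In ESC medium, leaving out XEN number 2 gave a log2 difference of 1.52 between XEN cells and MEF (adjusted p = 0.0348), against 0.92 with all libraries. Sycp3 shares 43% of its 50-base windows with Chpt1, which overlaps it on the other strand, so its counts may hold reads of either gene.

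**Figure D4:**
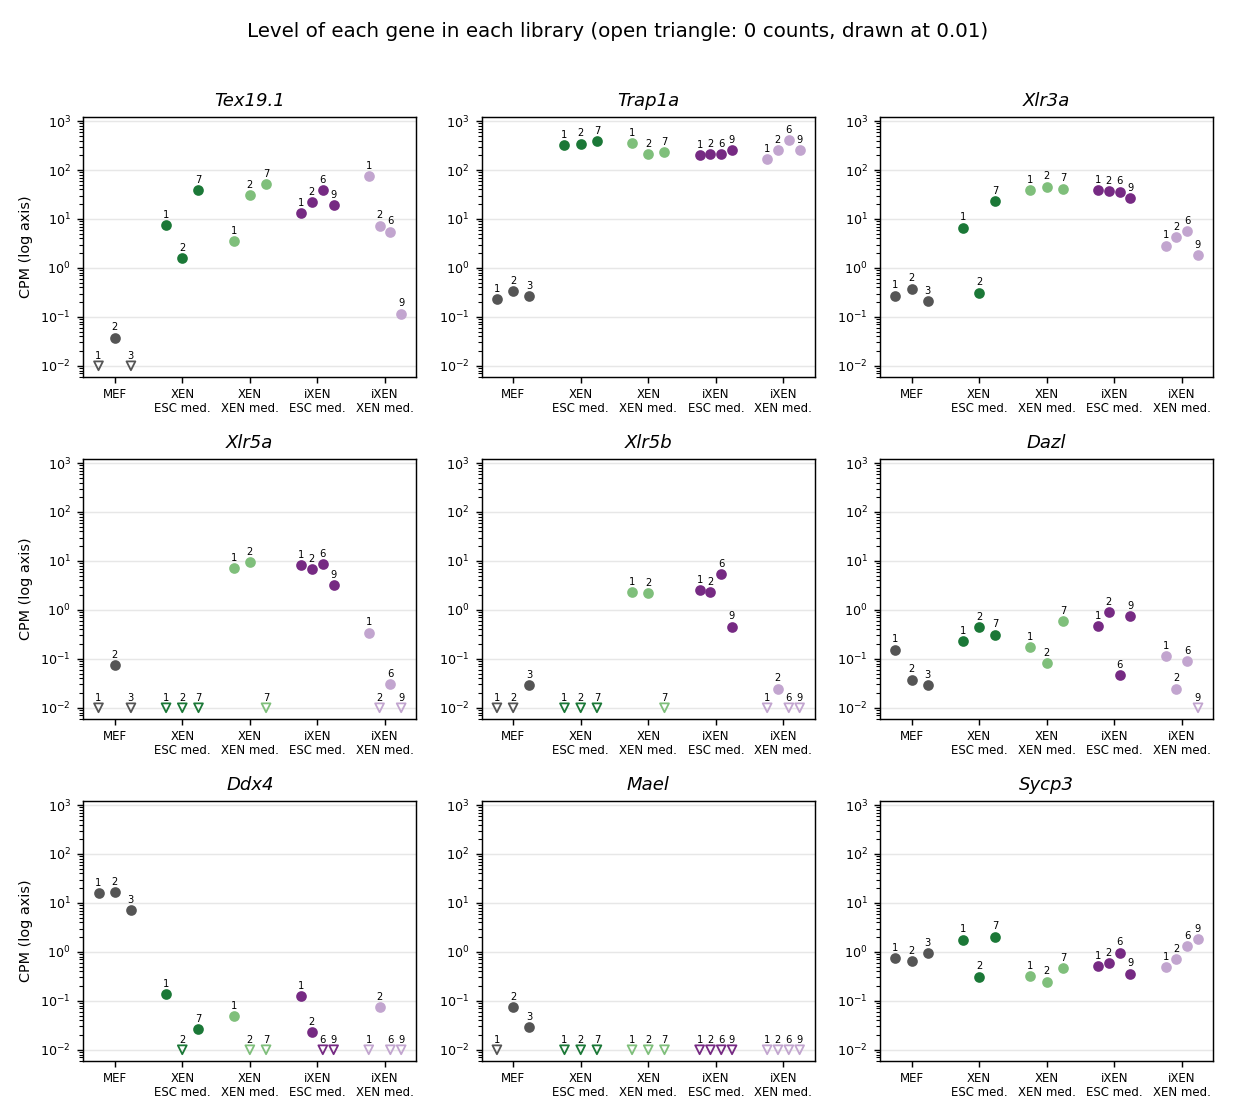
CPM of the 9 genes in each library, on log axes from 0.01, by group, each point marked with the number the labels give the library and open triangles drawn for 0 counts. Tex19.1 and Trap1a lie above MEF in all 14 XEN and iXEN libraries, Ddx4 lies below MEF in all 14, and Mael has 0 counts in all 14.

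Read over the 9 genes, iXEN cells in ESC medium were higher than MEF without overlap for 5 genes (Tex19.1, Trap1a, Xlr3a, Xlr5a and Xlr5b) and lower for 1 (Ddx4). Over all genes tested in that comparison, 23.3% were higher and 31.3% lower without overlap, and 46.7% were called. XEN cells in ESC medium were higher for Tex19.1, Trap1a and the barely detected Dazl, and lower for Ddx4, where 21.6% and 31.7% of all genes were higher and lower without overlap and 25.0% were called. In XEN medium, iXEN cells were higher than MEF for Tex19.1, Trap1a and Xlr3a and lower for Ddx4 (22.2% and 29.0% of all genes, and 32.6% called). XEN cells in XEN medium were higher for the same 3 and lower for Ddx4 and Sycp3 (28.6% and 34.8%, and 47.5% called). The 4 comparisons share the 3 MEF libraries. The 5 higher genes are those picked for their pattern, apart from Dazl, so nothing is read from their number.

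Between iXEN and XEN cells in ESC medium, 3 of the 9 genes (Xlr3a, Xlr5a and Xlr5b) were higher in iXEN cells without overlap and Trap1a was lower, where 3.77% of all genes were higher and 6.16% lower in that way. In XEN medium, Xlr3a was lower in iXEN cells and Sycp3 higher (2.39% and 2.10% of all genes). XEN medium against ESC medium gave Xlr3a higher in XEN cells (7.42% of all genes, with 5.13% lower) and Xlr3a, Xlr5a and Xlr5b lower in iXEN cells (5.81%, with 6.21% higher). edgeR called 0 genes of the whole table in each of these 4 comparisons and 0 for the interaction of cell type and medium. An unadjusted p under 0.05 was reached by 1770 and 544 genes between cell types in ESC and XEN medium, by 746 and 3018 between media in XEN and iXEN cells, and by 2131 for the interaction. DESeq2 called 530, 137, 91, 1638 and 489. For Dazl the interaction was -2.98 ± 1.45 (SE, log2; edgeR adjusted p = 0.359), and for Sycp3 2.89 ± 1.03 (edgeR adjusted p = 0.253).

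Across the 14 XEN and iXEN libraries, Xlr5a and Xlr5b had a Pearson correlation of logCPM of 0.961, the highest among pairs of the 8 genes with counts there, and the pair shares sequence. Xlr3a correlated with them at 0.663 and 0.682 and with Tex19.1 at 0.585. Trap1a was at -0.391 with Tex19.1, -0.461 with Xlr5a and 0.37 with Sycp3, and Sycp3 was at -0.534 with Xlr5a and -0.437 with Xlr5b. These points share libraries and depth and are given without a test. Of 11374 other genes with a mean of at least 2 CPM, those most like Tex19.1 were Mtmr7 (r = 0.94), Sort1 (0.905) and the DNA mismatch repair gene Mlh3 (0.9). Those most like Trap1a were Tmem203 (0.84), Dnajb14 (0.822) and Vkorc1 (0.808). For Dazl they were Rnf141 (0.93), Pex26 (0.927) and Tyk2 (0.914), and for Sycp3 they were 2610002J02Rik (0.913), Thap3 (0.895) and Chmp2a (0.89). Dazl, at most 0.906 CPM, and Sycp3, at most 2.06 CPM, lie near the floor, where logCPM depends on depth and the prior count. As the highest 3 of 11374 over 14 libraries, all these r are high in part by selection. For the Xlr genes the same measure was taken after their values were seen. Xlr3a was most like Syne4 (0.899), Xlr4b (0.878) and Prdm16 (0.859), and Xlr5a was most like Rlim (0.852), Foxa3 (0.848) and St14 (0.841).

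Other X-linked genes of the reproductive clusters (Xlr, Rhox, Mageb, Nxf and neighbours, 40 genes) were mostly too low to test. In iXEN cells in ESC medium against MEF, 10 could be tested, of which 7 rose and 2 fell, where 20.8% of all genes rose and 25.9% fell. The median fitted log2 difference of the 10 was 5.47, next to 0.03 over all genes, and it rests in part on Xlr4c, Xlr4b, Rhox6 and Mageb16, which had 0 to 3 counts in MEF. Mageb16, a melanoma antigen family gene, averaged 0.0295 ± 0.051 CPM in MEF (SD, n = 3) and 32 ± 4.48 CPM in those iXEN cells (n = 4). Xlr3b rose by 4.73 and Xlr3c by 6.04, and Xlr4b from 2 counts in MEF to 7.16 ± 2.8 CPM (n = 4), while the mRNA export gene Nxf2 fell by 4.49 and the placental gene Plac1 fell by 2.3. In XEN cells in ESC medium (25.0% of all genes called), 4 could be tested, of which Xlr (4.29) and Rhox8 (2.47) rose and Nxf2 fell to 3 counts. In XEN medium, 4 of 7 rose and 0 fell in iXEN cells (32.6% called), and 5 of 8 rose and 1 fell in XEN cells (47.5% called), where Mageb16 was at 52 ± 15.2 CPM (n = 3). Mageb16 ranged from 0 to 64.8 CPM in iXEN cells in XEN medium and from 0 to 17.5 CPM in the XEN libraries of ESC medium. Genes that passed the count filter only through the group where they are high had to differ, so these counts describe the tested genes alone.

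Of 20 genes of the piRNA pathway and germ granules, 8 could be tested in iXEN cells in ESC medium, where 3 rose and 2 fell and 46.7% of all genes were called. The Tudor gene Tdrd5 rose by 3.42 ± 0.44 (SE, log2; edgeR adjusted p = 0.000374), the helicase gene Ddx25 by 3.01 and Pld6 by 2.28, while Tdrkh fell by 4.31 and Tdrd7 by 1.69. Tdrd5 was too low to test against MEF in XEN cells in ESC medium and in iXEN cells in XEN medium. Its MEF counts alone thus did not pass the filter, and its call depends on the iXEN libraries where it is high. In XEN cells in ESC medium edgeR called 0 of 5 tested (25.0% of all genes). In XEN medium 2 of 6 rose and 1 fell in iXEN cells (32.6%), and 3 of 7 rose and 0 fell in XEN cells (47.5%). Tdrd5, among those that rose in XEN cells, again passed the filter through the group where it is high. Ddx25 averaged 1.13 ± 0.637 CPM in MEF (SD, n = 3), 12 ± 5.14 CPM in iXEN (n = 4) and 10.2 ± 8.19 CPM in XEN cells (n = 3) in XEN medium.

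Of 23 genes of meiotic chromosomes, 9 could be tested in each comparison with MEF. In ESC medium 4 rose and 2 fell in iXEN cells (46.7% of all genes were called), and 2 rose and 2 fell in XEN cells (25.0%). In XEN medium 3 rose and 1 fell in iXEN cells (32.6%), and 4 rose and 3 fell in XEN cells (47.5%). The synaptonemal complex gene Syce2 rose by 1.51 and 2.27 in iXEN and XEN cells in ESC medium and by 2.28 and 1.84 in XEN medium. Stag3, a meiotic cohesin gene, fell by 2.63 and 2.82 in ESC medium and by 2.85 and 4.43 in XEN medium, from 6.08 ± 2.15 CPM (SD, n = 3) in MEF. Sycp2, the partner of SYCP3 in the chromosome axis, fell from 0.506 ± 0.0949 CPM in MEF (n = 3) to 4 counts in iXEN and 0 counts in XEN cells in ESC medium. There Sycp2 passed the filter only through MEF, where it is high, so these calls depend on that group. Psmc3ip, a recombination cofactor gene, rose by 1.19 and 1.77 in iXEN and XEN cells in ESC medium and by 2.1 and 1.99 in XEN medium. Prdm9 rose by 1.94 in iXEN cells in ESC medium and by 1.73 and 1.71 in iXEN and XEN cells in XEN medium. Msh5 rose by 1.87 in iXEN cells in ESC medium and by 2.1 in XEN cells in XEN medium. The median log2 difference of the 9 tested was 0.34 in iXEN and 0.74 in XEN cells for ESC medium and 1.59 and 1.43 for XEN medium, against -0.03 to 0.06 over all genes. These medians describe the tested genes alone, while 14 or 15 of the 23 stayed under 1 CPM in each group. Of 18 other germline genes known to be silenced by methylation, 3 or 4 could be tested in each comparison with MEF. Zfp42, also a pluripotency marker, rose by 7.89 in iXEN cells in ESC medium, where Tex101 averaged 0.441 ± 0.362 CPM (n = 4) against 0 counts in MEF. Both passed the filter there only through the iXEN libraries, where they are high.

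Genes that silence the germline programme were expressed throughout, and 20 of 20 could be tested. Against MEF in ESC medium, 6 rose and 2 fell in iXEN cells (46.7% of all genes called), and 3 rose and 1 fell in XEN cells (25.0%), both shares of the list below those of all genes. In XEN medium 5 rose and 2 fell in iXEN cells (32.6%), and 9 rose and 2 fell in XEN cells (47.5%). L3mbtl2 averaged 16.8 ± 2.67 CPM in MEF (SD, n = 3) and rose by 1.78 ± 0.2 (SE, log2) in iXEN and 1.58 ± 0.3 in XEN cells in ESC medium, and by 1.75 ± 0.33 and 1.87 ± 0.25 in XEN medium (edgeR adjusted p from 0.000188 to 0.0152). Pcgf6 rose by 1.66 and 1.41 in ESC medium and by 2.31 and 2.22 in XEN medium. Max, whose product pairs with MGA, rose by 0.91 and 0.68 in ESC medium and by 1.21 and 1.09 in XEN medium. Yaf2, of the same Polycomb complex, rose by 1.2 in iXEN cells in ESC medium and by 1.42 and 1.65 in iXEN and XEN cells in XEN medium. Mga, named here after its values were seen, passed in none of the 4, at 0.7 and -0.68 in ESC and -0.5 and -0.38 in XEN medium. The histone deacetylase gene Hdac2 fell by 0.82 in iXEN cells in ESC medium. The medians of the 20 were 0.41 in iXEN and -0.06 in XEN cells for ESC medium, then 0.48 and 0.61 for XEN medium. Atf7ip, a partner of the histone methyltransferase SETDB1, fell by 0.91 and 1.03 in ESC medium and by 1.57 and 1.26 in XEN medium.

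Among 14 genes of DNA methylation, the 2 de novo methyltransferases differed in direction. Dnmt3b was at 3.43 ± 0.43 CPM in MEF (SD, n = 3) and rose by 3.67 ± 0.5 (SE, log2) in iXEN and 3.12 ± 0.41 in XEN cells in ESC medium. In XEN medium it rose by 3.9 ± 0.48 and 4.64 ± 0.2 (edgeR adjusted p from 9.33e-05 to 0.00693 over the 4). Dnmt3a was at 95.5 ± 25.3 CPM in MEF and fell by 0.7 and 1.27 in ESC medium and by 1.98 and 1.05 in XEN medium (edgeR adjusted p from 0.00511 to 0.0428). Dnmt3l, the cofactor known from germ cells, rose by 5.26 in ESC and 4.35 in XEN medium in iXEN cells. It was too low to test in XEN cells against MEF, so these calls depend on the iXEN libraries where it is high. Between iXEN and XEN cells Dnmt3l was not called in either medium. The list as a whole gave 4 risen and 1 fallen of 13 tested in iXEN cells (46.7% of all genes called) and 1 and 1 of 12 in XEN cells (25.0%) in ESC medium. In XEN medium it gave 3 and 2 of 13 (32.6%) and 4 and 3 of 12 (47.5%).

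Of 24 trophoblast genes, 7 or 8 could be tested against MEF. In ESC medium 2 rose and 1 fell in iXEN cells (46.7% of all genes called) and 1 rose and 1 fell in XEN cells (25.0%). In XEN medium 2 rose and 0 fell in iXEN cells (32.6%) and 4 rose and 1 fell in XEN cells (47.5%). Plet1, a surface protein gene of trophoblast and other epithelia, rose by 5.59 and 7.54 in iXEN and XEN cells in ESC medium and by 4.57 and 8.32 in XEN medium. Its level ranged from 2.33 to 62.1 CPM in XEN cells in XEN medium. A fitted difference of 8.32 from those levels leaves Plet1 too low in MEF to pass the filter there. Its calls thus depend on the groups where it is high. Cdx2, a trophoblast transcription factor gene, averaged 2.88 ± 2.86 CPM (SD, n = 3) in those XEN cells against 0 counts in MEF, and passed the filter only through them. Rhox6, counted in this list and among the X-linked genes, had 2 counts in MEF and passed the filter only through iXEN cells, with 14.8 ± 22.6 CPM in ESC and 10.5 ± 13.6 CPM in XEN medium (SD, n = 4 each). It ranged from 0.0448 to 48.6 CPM over the 14 XEN and iXEN libraries. None of the lists held a called gene between XEN and iXEN cells or between media, where edgeR called 0 genes in all.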

How the data were processed

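RNA was extracted with Trizol and libraries were made with the Illumina TruSeq mRNA kit, per the labels' protocols. The authors deposited raw whole-number read counts per gene symbol for each library. FastQC 0.11.3, Trimmomatic 0.32, TopHat2 2.0.12, HTSeq 0.6.1 and build mm9 are named in the submitters' processing notes. The order of these steps, the annotation and the strand setting are not stated in any source used. Lines of the counter that name no gene held 20.81% to 33.1% of the file totals and were left out.

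Groups came from the titles. The 9 genes, the gene lists and the tests were chosen with earlier results of these data known. Each pair of groups was fitted alone with edgeR 4.0.16 (R 4.3.3) on the deposited counts, with filterByExpr (minimum count 10, minimum total 15), TMM and the two-sided quasi-likelihood test, adjusted by Benjamini-Hochberg over all genes tested and called under 0.05. A gene rose or fell only if called. SE is the log2 difference over the square root of F. CPM use TMM factors over all 17 libraries (0.863 to 1.159), and logCPM have a prior count of 2. Ratios of pooled counts have exact 95% binomial intervals, which cover counting error only, as do the floors of 3 counts. Called genes named from a list were mostly among the 4 of lowest adjusted p in their direction in at least 1 comparison. Not all of those 4 were named. The 3 most similar genes were taken by Pearson correlation. The alternatives were RLE size factors, no filter, DESeq2 1.42.0, 1 fit of all 17 libraries, a block of replicate numbers, leaving out each library, and, chosen after seeing the data, leaving out the 3 libraries highest in fibroblast markers. Scripts were tested on simulated data.

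The design text calls the libraries biological replicates and says no more of their source, so p-values measure the spread between these libraries. Chi-square per degree of freedom between libraries of a group was 43.4 to 1220, so none were copies. Same-numbered XEN libraries in the 2 media deviated together from their group means (r = 0.24, 0.377 and 0.635). Number 2 in ESC medium correlated more with number 1 in XEN medium (0.428). The labels do not pair these libraries, and the differences between media given above come from fits without pairing. A block of replicate numbers was fitted only as an alternative. For iXEN cells the correlations were weaker (r = 0.144, 0.181, 0.122 and -0.035 for numbers 1, 2, 6 and 9). Numbers 1 and 2 correlated most with their own number, and numbers 6 and 9 did not. Across cell types, same-numbered libraries correlated at -0.257 to 0.081. Promoters are from RefSeq on GRCm38.p6, which matched all 9 genes, and shared windows are from GENCODE M21.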

Additional observations from a re-analysis of the deposited data

Results flagged for a closer look

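For 4 genes, 1 iXEN library in XEN medium stood far from the other 3 by Dixon's gap criterion. Its usual rate, 1 in 20 groups apart by chance, is for genes not picked for their pattern and for values not mostly at 0, so it is not set against these 4. Tex19.1 was at 74.9 CPM in iXEN number 1, where the others held 0.116 to 7.31 CPM. Xlr5a was at 0.342 CPM in the same library, with the others at 0 to 0.0301 CPM. Xlr5b was at 0.0246 CPM and Ddx4 at 0.0738 CPM in iXEN number 2, which rest on 1 and 3 counts. With the others at 0, any count meets the criterion.

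Xlr3a went opposite ways with medium in XEN and iXEN cells: all 3 XEN libraries in XEN medium lay above all in ESC medium, and all 4 iXEN libraries lay below. The log2 difference between these effects was -5.29, and it was not tested, because Xlr3a was picked for its pattern.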

How the results depend on the processing

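The counts of genes called against MEF depended on single libraries and on the test. XEN cells in ESC medium gave 3507 genes, but 372, 692 and 562 without MEF number 1, 2 or 3 and 6056 without XEN number 2. DESeq2 gave 5850 there and the replicate block 1303. For iXEN cells in XEN medium, 4708 genes became 1847, 2245 and 1842 without MEF number 1, 2 or 3, and 0 with the block. Leaving out the 3 libraries highest in fibroblast markers, chosen after seeing the data, gave 7440, of which 4453 were among the 4708. XEN cells in XEN medium gave 6830, but 3985 and 4084 without MEF number 1 or 3. Leaving out 1 library gave 5064 to 8081 genes in iXEN cells in ESC medium, 372 to 6056 in XEN cells in ESC medium, 1842 to 5663 in iXEN cells in XEN medium and 3985 to 8965 in XEN cells in XEN medium.

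Between iXEN and XEN cells in ESC medium, where edgeR called 0, no filter gave 5, DESeq2 530, the block 9 and leaving out 1 library 0 to 49, with 49 and 35 without XEN number 2 or 7. In XEN medium DESeq2 gave 137. Between media, DESeq2 gave 91 in XEN cells and 1638 in iXEN cells. In iXEN cells 1 fit of all 17 libraries gave 330, leaving out 1 library 0 to 416 (416 without iXEN number 6 in ESC medium, 346 without number 2 in XEN medium), and leaving out the libraries highest in fibroblast markers 1. For the interaction, DESeq2 gave 489 and the block 1.

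Sycp3 turned from 0.59 to -0.15 (log2) with the block in iXEN cells against MEF in XEN medium. Dazl between media in XEN cells turned from -0.25 to 0.02, 0.01 and 0.19 without XEN number 2 in ESC medium and numbers 1 and 2 in XEN medium, in a range of -1.36 to 0.19. Of the values for tested genes, 206 kept direction and side of the threshold, 6 lost the call, 2 gained one and 4 turned. Depth limits Dazl, Mael, Xlr5a, Xlr5b and Ddx4, which rest on few or 0 counts in at least 1 group. The paired block for XEN cells between media called 0 genes, as did the fit without it.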
